A study of Mus musculus with 18 samples.

Results

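The genes described here make leukotrienes and prostaglandins from arachidonic acid or take prostaglandins apart. They are Pla2g4a, Alox5, Alox5ap, Ltc4s, Ptgs1, Ptgs2, Hpgds, Ptges, Tbxas1 and Hpgd, chosen by symbol from the deposited count table, and they are 10 of its 27179 genes. All 10 passed the filter on low counts that kept 19364 genes. RNA-seq had been made from thymic epithelial cells (TEC), the stromal cells of the thymus that select developing T cells, and the study compared wildtype (WT) mice with Kat7 knockout (KO) mice, both on a C57BL/6 background. Kat7 encodes a histone acetyltransferase. The cells were sorted as cortical TEC (cTEC) and as medullary TEC, the latter in fractions with much (mTEChi) or little (mTEClo) MHC class II on their surface. Pools 1, 2 and 3 were WT mice and pools 4, 5 and 6 were KO mice, and each pool gave 1 library of each subset, so there were 18 libraries in 6 groups of 3. Not given in the sources used here were the number of mice in a pool, their age and sex, and which exons of Kat7 were deleted in which cells. A difference of batch between the WT and the KO pools cannot be told apart from the genotype. The p-values below measure the spread between pools within a group. Subsets of 1 genotype came from the same pools, and the main fit did not pair them.

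Cytosolic phospholipase A2 (Pla2g4a) frees arachidonic acid from membrane lipids. One branch passes it to 5-lipoxygenase (Alox5), which works with its activating protein FLAP (Alox5ap) to make leukotriene A4. Leukotriene C4 synthase (Ltc4s) then makes leukotriene C4, a cysteinyl leukotriene. The other branch passes it to the cyclooxygenases COX-1 (Ptgs1) and COX-2 (Ptgs2), whose product is turned into prostaglandin D2 by the hematopoietic synthase Hpgds, into prostaglandin E2 by Ptges and into thromboxane by Tbxas1, while Hpgd oxidises and inactivates prostaglandins. Tuft cells, chemosensory epithelial cells found in the thymic medulla and in many mucosae, are known for strong expression of Alox5, Alox5ap, Ltc4s, Ptgs1 and Hpgds, and mast cells and other myeloid cells also use the pathway.

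Library totals ran from 3554089 to 20054360 counts. Kat7 was at 38.6 to 83.4 CPM (counts scaled to library sizes adjusted by TMM) in WT libraries, 9 in all, against 0.765 to 4.16 CPM in the 9 of KO, so every library followed its genotype label. The cortical proteasome subunit Psmb11 averaged 232 CPM in WT cTEC against 20.8 in WT mTEChi and 17.6 in WT mTEClo. Aire, the regulator of mature medullary cells, averaged 1180 CPM in WT mTEChi against 37.6 in WT mTEClo and 49.8 in WT cTEC. In the KO groups Psmb11 averaged 651 CPM in cTEC, 91.2 in mTEChi and 67.2 in mTEClo, and Aire averaged 676 CPM in mTEChi, 39.3 in mTEClo and 17.3 in cTEC. Psmb11 was thus highest in cTEC and Aire in mTEChi in both genotypes. The MHC class II genes behind the sort of mTEChi and mTEClo were not examined. These were bulk libraries, in which fewer cells of a type and less RNA per cell cannot be told apart.

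In the RefSeq promoter table of GRCm38.p6, 9 of the 10 members had an entry, the exception being Alox5ap. The 250 bases before the start are shown for 4 members whose levels followed those of tuft cell markers across the libraries (Alox5, Ltc4s, Ptgs1 and Hpgds) and for Ptgs2, which did not. They lie at chr6:116461179-116461428 on the minus strand for Alox5, chr11:50238533-50238782 on the minus strand for Ltc4s, chr2:36230176-36230425 on the plus strand for Ptgs1, chr6:65144731-65144980 on the minus strand for Hpgds and chr1:150099781-150100030 on the plus strand for Ptgs2. The Ptgs1 start in that table lies inside the annotated gene, which spans chr2:36216742-36258593, and the Hpgds window lies inside its annotated gene as well (chr6:65117293-65144981). Each is written 5′ to 3′ on the strand of its gene, with capitals for motif letters.
Alox5: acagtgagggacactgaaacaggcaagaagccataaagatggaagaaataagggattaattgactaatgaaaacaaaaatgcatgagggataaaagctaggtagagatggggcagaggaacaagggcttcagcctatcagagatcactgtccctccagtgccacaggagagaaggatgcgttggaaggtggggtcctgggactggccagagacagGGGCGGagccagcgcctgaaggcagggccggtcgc
Ltc4s: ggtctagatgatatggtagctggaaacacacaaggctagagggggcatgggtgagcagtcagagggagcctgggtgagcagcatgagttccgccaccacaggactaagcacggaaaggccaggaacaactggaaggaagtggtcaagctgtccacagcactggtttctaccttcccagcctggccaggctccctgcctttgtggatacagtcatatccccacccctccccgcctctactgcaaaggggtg
Ptgs1: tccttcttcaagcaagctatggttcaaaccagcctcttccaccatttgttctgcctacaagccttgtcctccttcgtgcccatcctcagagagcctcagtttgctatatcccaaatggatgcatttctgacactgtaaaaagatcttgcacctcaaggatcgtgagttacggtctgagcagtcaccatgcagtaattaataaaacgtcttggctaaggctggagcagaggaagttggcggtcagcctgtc
Hpgds: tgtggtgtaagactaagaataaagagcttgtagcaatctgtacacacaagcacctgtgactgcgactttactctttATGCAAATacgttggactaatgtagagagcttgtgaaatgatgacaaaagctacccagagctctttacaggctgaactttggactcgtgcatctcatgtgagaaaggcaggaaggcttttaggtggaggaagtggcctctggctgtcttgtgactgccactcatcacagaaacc
Ptgs2: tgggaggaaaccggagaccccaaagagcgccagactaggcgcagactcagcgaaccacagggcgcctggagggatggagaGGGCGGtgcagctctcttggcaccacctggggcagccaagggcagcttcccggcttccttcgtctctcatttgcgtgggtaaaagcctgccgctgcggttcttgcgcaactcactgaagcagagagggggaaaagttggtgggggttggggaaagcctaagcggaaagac
Motif letters were searched on both strands, here and in 32851 mouse promoters cut to the same length. The octamer ATGCAAAT, which POU-domain factors are known to bind, was in 1.6% of those promoters. The GC box GGGCGG was in 32.7% of them and the TATA box, spelled TATAAA, in 12.4%. The E box CACGTG was found in 6.02%, the cyclic AMP element TGACGTCA in 1.55%, and the box spelled CCAAT in 33.8%. The Hpgds window held the octamer at positions -174 to -167 from the start. Alox5 had a GC box at -35 to -30 and Ptgs2 had one at -170 to -165. None of the 6 strings was in the windows of Ltc4s and Ptgs1, and these 5 windows shared no motif beyond the GC box of Alox5 and Ptgs2.

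In WT cells the members fell into contrasting patterns. Between WT mTEChi and WT mTEClo, 4 members were higher in mTEChi and 6 were lower, while 32.6% of all genes tested were higher and 26.7% lower. Pla2g4a, Ptgs2, Ptges and Tbxas1 were the higher ones, and the lower ones were Alox5, Alox5ap, Ltc4s, Ptgs1, Hpgds and Hpgd. The widest gap belonged to Ptgs2, at 477, 479 and 416 CPM in the mTEChi of pools 1, 2 and 3 against 41.6, 24.99 and 37.5 CPM in their mTEClo (log2 fold change of 3.72 with SE 0.17, adjusted p = 1.92e-12). In the opposite direction, Alox5ap was at 20.8, 18.2 and 13.3 CPM in mTEChi and 181, 163 and 159 CPM in mTEClo (log2 fold change of -3.29 with SE 0.20, adjusted p = 5.91e-11). The call for Ltc4s rested on a small difference (log2 fold change of -0.59 with SE 0.22, adjusted p = 0.0258) that missed the threshold in DESeq2 (0.0532) and with RLE scaling (0.0533). It also missed it without the mTEChi library of pool 2 (0.0858) or 3 (0.084) or the mTEClo library of pool 2 (0.0529) or 3 (0.055). The Tbxas1 call (log2 fold change of 2.07 with SE 0.77, adjusted p = 0.027) was lost without the mTEChi library of pool 2 (0.0558) or 3 (0.0786) or the mTEClo library of pool 1 (0.101) or 2 (0.0686). Each adjusted p here is from edgeR's quasi-likelihood test with Benjamini-Hochberg adjustment over all genes tested. Markers of other cell types also separated these WT subsets. The 10 macrophage genes summed to 1560 to 1620 CPM in WT mTEChi against 137 to 156 in WT mTEClo, with 9 of 9 tested higher. Most of that WT mTEChi sum was Lyz2, which averaged 1450 CPM. The sums were 945 to 1130 against 73.6 to 103 CPM for 10 mast cell genes, 9 of them higher, and 447 to 564 against 8.17 to 22.3 CPM for 8 neutrophil genes, with 6 of 7 tested higher. Of 20 tuft cell genes, 17 were lower in mTEChi and none higher. Their part in the differences of the members was not tested.

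WT mTEClo and WT cTEC differed in 6 members. In mTEClo 5 members were higher and 1, Ptges, was lower, beside 13% and 14.4% of all genes. The higher ones were Alox5ap, Hpgds, Ptgs1, Ltc4s and Pla2g4a, with log2 differences of 1.66, 1.22, 1.02, 0.84 and 0.56. The Pla2g4a call was lost with only the groups compared in the fit (adjusted p = 0.0626) and without the mTEClo of pool 1 (adjusted p = 0.0818). Ptgs2 missed the threshold (adjusted p = 0.0859) and passed it without the mTEClo library of pool 2 (0.0136). Hpgd, the enzyme that inactivates prostaglandins, averaged 463 CPM in mTEClo and 461 in cTEC, with a 95% interval of the log2 difference of -0.26 to 0.27. Against WT cTEC, WT mTEChi had 4 members higher (Pla2g4a, Ptgs2, Hpgds and Tbxas1) and 4 lower (Alox5, Alox5ap, Ptgs1 and Hpgd), beside 35.9% and 28.5% of all genes. The Hpgds call in that comparison (log2 fold change of 0.41 with SE 0.16, adjusted p = 0.0313) did not hold without the filter on low counts (adjusted p = 0.116). It also did not hold with only the groups compared in the fit (0.0641). The same call was lost without the mTEChi library of pool 1 (0.0801) or 2 (0.0721) or the cTEC library of pool 2 (0.142) or 3 (0.0853). Ltc4s missed the threshold (adjusted p = 0.339) and passed it without the cTEC library of pool 3 (0.0257). The 3 comparisons share their WT groups and are not independent.

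**Figure D1:**
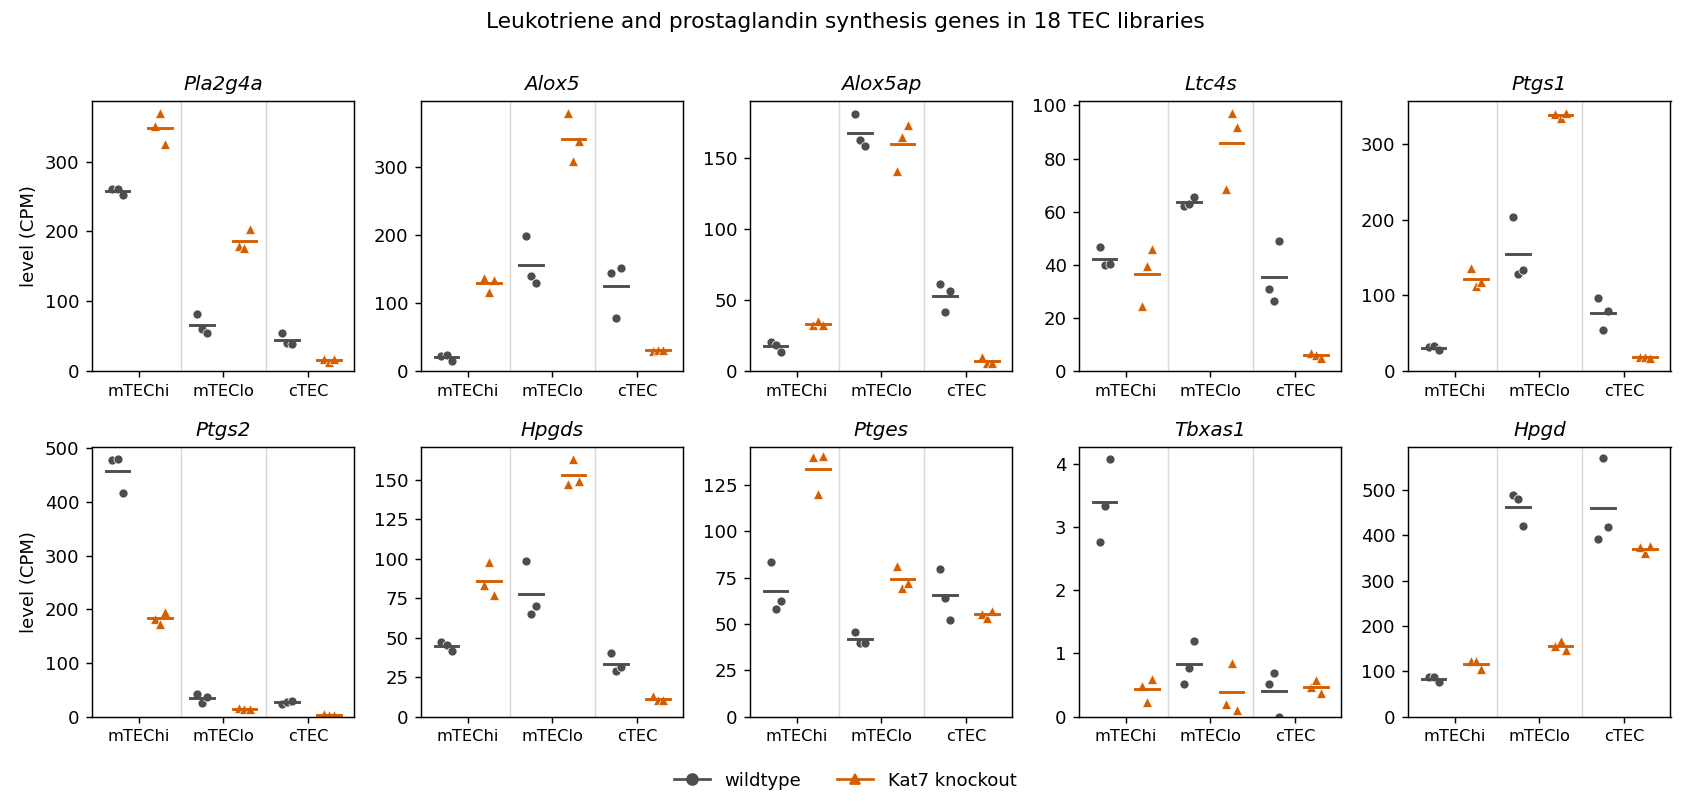
Level of each member in CPM in the 18 libraries, by subset, with circles for WT and triangles for KO and a bar at each group mean. In mTEChi the KO libraries of Alox5 (116 to 137 CPM) lie above the WT libraries (14.9 to 23.5 CPM), while in cTEC they lie below (30.0 to 31.7 against 78.2 to 151 CPM), and Ptgs2 is lower in KO in every subset.

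The loss of Kat7 was accompanied by changes in most members, and the direction of several differed between the medullary subsets and cTEC. In mTEChi, 7 members rose and 2 fell in KO, beside 17.1% and 19.3% of all genes tested, and the median log2 fold change of the 10 members was 0.72 against -0.11 over all genes. In mTEClo, 5 rose and 2 fell, beside 18.9% and 15.8% of all genes, with medians of 0.63 and 0.01. In cTEC none rose and 8 fell, beside 22.3% and 26.7% of all genes, with medians of -1.78 and -0.02. Ptgs2 fell in all 3 subsets. Alox5, Ptgs1, Hpgds and Pla2g4a rose in both medullary subsets and fell in cTEC.

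**Figure D2:**
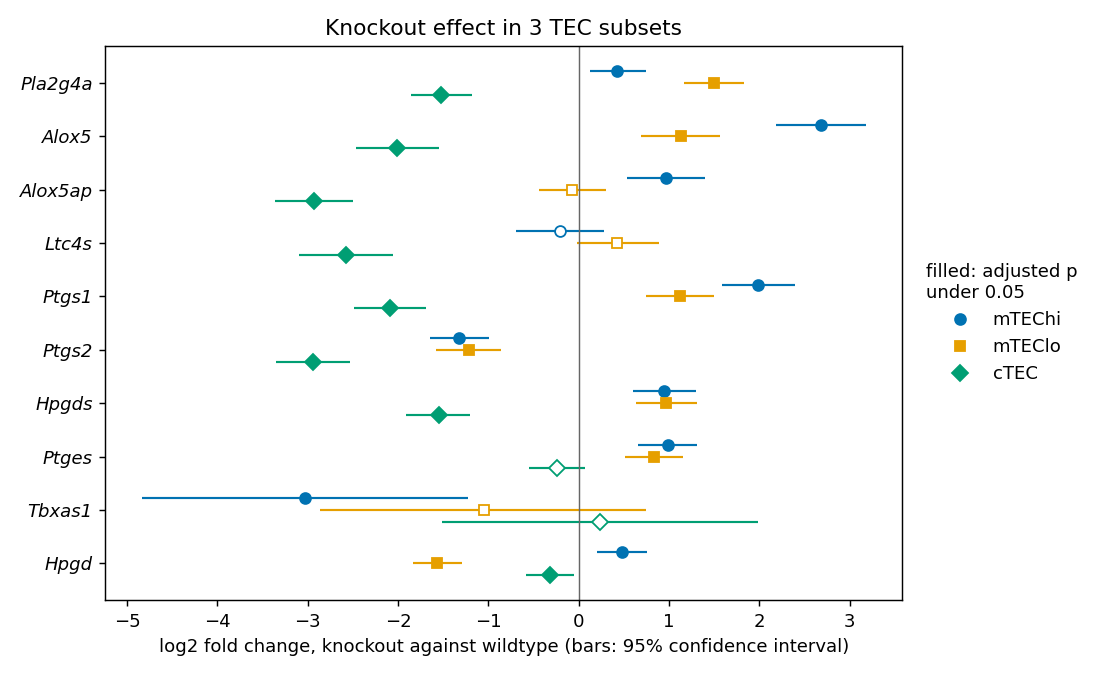
Log2 fold change of KO against WT for each member in mTEChi (circles), mTEClo (squares) and cTEC (diamonds), with 95% confidence intervals as bars and filled symbols where the adjusted p was under 0.05. In cTEC 8 of 10 members are filled and left of 0, Ptgs2 is left of 0 in all 3 subsets, and Hpgd is right of 0 in mTEChi (0.48) and left of it in mTEClo (-1.57).

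The difference of the KO effect between subsets was tested itself. Between mTEChi and cTEC it was higher in mTEChi for 9 members and lower for 1, Tbxas1, beside 18.3% and 13.2% of all genes. Between mTEClo and cTEC it was higher in mTEClo for 8 members and lower for Hpgd, beside 16.4% and 9.54%. The largest were those of Alox5 and Ptgs1 between mTEChi and cTEC, at 4.69 and 4.08 on the log2 scale (SE 0.31 and 0.26). Between the medullary subsets, 4 members had the higher effect in mTEChi (Alox5, Alox5ap, Ptgs1 and Hpgd) and Pla2g4a had the lower, beside 6.72% and 6.78%. The Ptgs1 difference there (log2 difference of 0.87 with SE 0.25, adjusted p = 0.024) lost its call without the mTEClo library of pool 1 (0.0719) or the mTEChi library of pool 3 (0.0763) or 4 (0.058). That of Tbxas1 between mTEChi and cTEC (log2 difference of -3.27 with SE 1.16, adjusted p = 0.0373) was lost with the mouse pool as a block (adjusted p = 0.064), without any 1 of the 6 mTEChi libraries (0.0516 to 0.098), and without the cTEC library of pool 4 (0.0619) or 5 (0.0805). Comparisons that share a subset share its libraries.

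Pla2g4a, which supplies the arachidonic acid for both branches (Entrez 18783, chr1:149829618-149961290), was highest in mTEChi, and no neighbouring groups in its order of levels overlapped. In mTEChi the WT pools 1, 2 and 3 had 261, 261 and 252 CPM and the KO pools 4, 5 and 6 had 351, 369 and 325 CPM. The mTEClo values were 81.7, 60.5 and 54.9 CPM in WT and 180, 176 and 203 CPM in KO. For cTEC they were 54.1, 40.7 and 39.5 CPM in WT and 17.5, 12.5 and 16.8 CPM in KO. KO libraries were thus all above WT in both medullary subsets and all below in cTEC. Pla2g4a rose 2.83-fold in mTEClo (log2 fold change of 1.50 with SE 0.15, adjusted p = 2.47e-07) and was 2.86-fold lower in KO cTEC (log2 fold change of -1.52 with SE 0.16, adjusted p = 1.61e-07). The rise in mTEChi was 1.35-fold (log2 fold change of 0.43 with SE 0.14, adjusted p = 0.0249), and its call was lost without the mTEChi library of pool 2 (adjusted p = 0.0508), pool 3 (0.0696) or pool 5 (0.0635).

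Of the leukotriene genes, Alox5 (Entrez 11689, chr6:116410071-116461178) moved most in mTEChi. The mTEChi libraries had 22.4, 23.5 and 14.9 CPM in WT pools 1, 2 and 3 and 137, 116 and 135 CPM in KO pools 4, 5 and 6. In mTEClo the same pools had 199, 140 and 130 CPM and 379, 309 and 338 CPM. In cTEC they had 144, 78.2 and 151 CPM and 30.04, 30.9 and 31.7 CPM, where WT pool 2 was the lowest of the WT libraries and the KO pools lay close together. WT and KO did not overlap in any subset. Alox5 rose 6.40-fold in mTEChi (log2 fold change of 2.68 with SE 0.23, adjusted p = 9.1e-08) and 2.19-fold in mTEClo (log2 fold change of 1.13 with SE 0.20, adjusted p = 0.000204). It was 4.03-fold lower in KO cTEC (log2 fold change of -2.01 with SE 0.21, adjusted p = 1.88e-07). KO mTEChi reached the range of WT cTEC and of WT mTEClo, groups that neighbour it in the order of levels and overlap with it.

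Alox5ap, the partner protein of 5-lipoxygenase (Entrez 11690, chr5:149265004-149288153), did not follow Alox5 everywhere. Its mTEChi levels were 20.8, 18.2 and 13.3 CPM in WT and 32.5, 35.1 and 32.7 CPM in KO, with no overlap (log2 fold change of 0.97 with SE 0.20, adjusted p = 0.000923). In mTEClo the WT libraries had 181, 163 and 159 CPM and the KO libraries 141, 165 and 174 CPM. The mTEClo groups overlapped (log2 fold change of -0.07 with SE 0.17, adjusted p = 0.789), and the 95% interval of -0.44 to 0.30 lies below the Alox5 rise of 1.13 in the same libraries. In cTEC it fell from 61.2, 41.97 and 56.5 CPM to 9.77, 5.44 and 5.78 CPM, 7.63-fold lower (log2 fold change of -2.93 with SE 0.20, adjusted p = 4.56e-10).

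Ltc4s, which makes leukotriene C4 (Entrez 17001, chr11:50236461-50238532), passed the test for KO against WT in cTEC and in neither medullary subset. In mTEChi WT had 46.8, 39.9 and 40.3 CPM and KO 24.4, 39.5 and 45.8 CPM, where KO pool 4 was low and the other two lay within or near the WT range (log2 fold change of -0.21 with SE 0.22, adjusted p = 0.489, 95% interval -0.69 to 0.28). In mTEClo WT had 62.2, 62.9 and 65.4 CPM and KO 68.6, 97.1 and 91.7 CPM. These libraries did not overlap, but the difference missed the threshold (log2 fold change of 0.43 with SE 0.21, adjusted p = 0.119) and passed it when only these 2 groups were fitted (adjusted p = 0.0315). The cTEC levels were 31.1, 26.5 and 48.98 CPM in WT and 6.998, 6.09 and 4.84 CPM in KO, 5.97-fold lower (log2 fold change of -2.58 with SE 0.24, adjusted p = 3.75e-08). The library kit does not record strand, and 268 exon bases of Ltc4s lie opposite the predicted gene Gm26542, as do 189 of Alox5ap opposite Gm19719, 148 of Ptgs1 opposite Gm43621 and 144 of Tbxas1 opposite Gm42962, so reads of these pairs cannot be told apart.

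The cyclooxygenases changed in opposite directions in the medullary subsets. Ptgs1 encodes COX-1, the form known as constitutive in many tissues (Entrez 19224). In mTEChi it was at 31.8, 32.5 and 27.7 CPM in WT and 136, 113 and 118 CPM in KO, and in mTEClo at 203, 128 and 134 CPM and 340, 334 and 341 CPM. In cTEC it was at 97.2, 54.6 and 79.2 CPM and 18.6, 18.00 and 17.7 CPM. WT and KO were apart in every subset, with KO above in the medullary subsets and below in cTEC. Ptgs1 rose 3.98-fold in mTEChi (log2 fold change of 1.99 with SE 0.19, adjusted p = 3.04e-07) and 2.18-fold in mTEClo (log2 fold change of 1.12 with SE 0.17, adjusted p = 4.19e-05). It was 4.25-fold lower in KO cTEC (log2 fold change of -2.09 with SE 0.18, adjusted p = 1.8e-08). The 3 KO libraries of mTEClo differed from each other by less than those of WT mTEClo, where pool 1 stood highest.

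Ptgs2 encodes COX-2, the form known for rapid induction (Entrez 19225, chr1:150100031-150108234), and had the widest range of the members, with a 132-fold ratio between the means of WT mTEChi and KO cTEC. WT mTEChi had 477, 479 and 416 CPM and KO mTEChi 183, 173 and 195 CPM. The mTEClo libraries had 41.6, 24.99 and 37.5 CPM in WT and 15.6, 14.98 and 14.1 CPM in KO, and the cTEC libraries 23.4, 26.8 and 29.8 CPM in WT and 4.09, 2.395 and 3.89 CPM in KO. Every KO library was below every WT library of its subset. Ptgs2 was 2.49-fold lower in KO mTEChi (log2 fold change of -1.32 with SE 0.15, adjusted p = 3.17e-06), 2.33-fold lower in KO mTEClo (log2 fold change of -1.22 with SE 0.17, adjusted p = 1.16e-05) and 7.67-fold lower in KO cTEC (log2 fold change of -2.94 with SE 0.19, adjusted p = 2.55e-10). Its fall was larger in cTEC than in mTEChi by 1.62 on the log2 scale (adjusted p = 3.82e-05), while mTEChi and mTEClo differed by -0.10 (95% interval -0.58 to 0.39).

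Levels of the 2 cyclooxygenases were set against each other per kilobase of transcript (RPKM). Ptgs1 made up 8.81%, 8.96% and 8.78% of their sum in WT mTEChi of pools 1, 2 and 3. In KO mTEChi of pools 4, 5 and 6 it made up 51.8%, 48.5% and 46.8%. WT mTEClo had a mean share of 86.5% ± 2.39 (SD, n = 3), KO mTEClo 97.0% ± 0.153, WT cTEC 80.0% ± 5.57 and KO cTEC 88.4% ± 2.77. The share of COX-1 transcripts was thus higher in every KO library than in every WT library of the same subset. A two-sided exact permutation test gave p = 0.1 in each subset, the smallest value that 3 against 3 libraries allow. In RPKM, WT mTEChi had 110 for Ptgs2 and 10.7 for Ptgs1, KO mTEChi had 44.3 and 42.6, and KO mTEClo had 3.59 and 118.

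**Figure D3:**
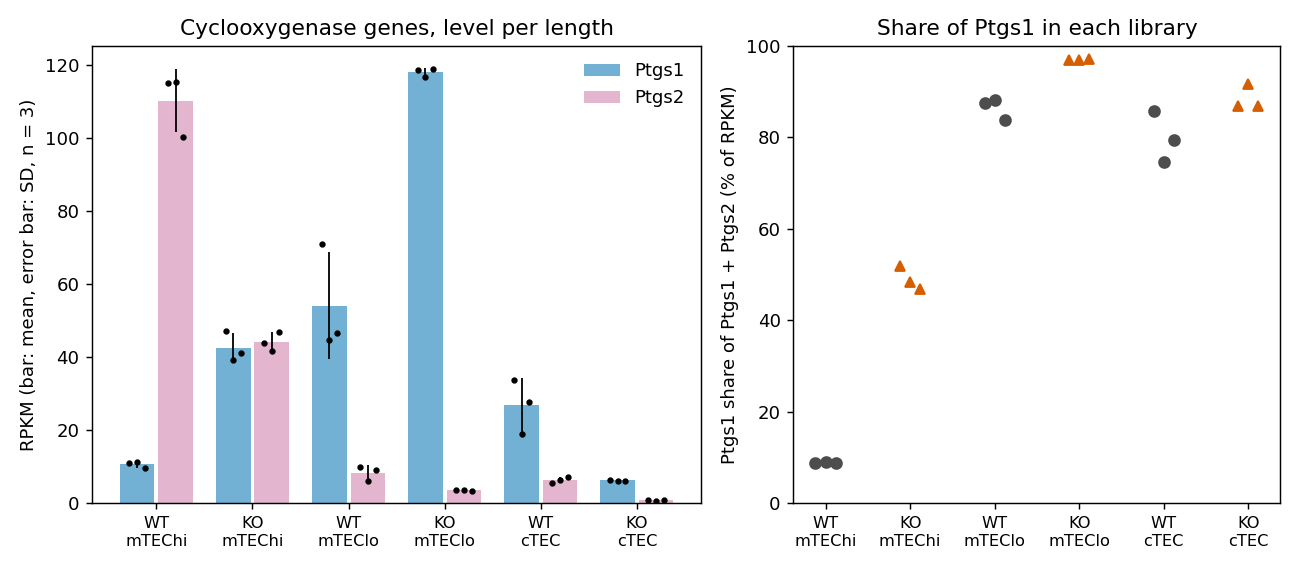
Levels of Ptgs1 and Ptgs2 in RPKM for the 18 libraries, by subset and genotype. The KO mTEChi libraries have near equal levels (means of 42.6 and 44.3 RPKM), the WT mTEChi libraries have far more Ptgs2, and the other 4 groups have more Ptgs1.

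Hpgds, which makes prostaglandin D2 (Entrez 54486, chr6:65117293-65144981), rose by nearly the same amount in both medullary subsets. It was at 47.3, 45.4 and 41.2 CPM in WT mTEChi and 83.3, 97.5 and 76.99 CPM in KO mTEChi. In mTEClo the values were 98.5, 64.6 and 70.2 CPM and 147, 163 and 149 CPM, and in cTEC 40.4, 28.9 and 31.6 CPM and 13.3, 10.6 and 10.4 CPM. WT and KO libraries did not overlap in any subset. The rise was 1.93-fold in mTEChi (log2 fold change of 0.95 with SE 0.16, adjusted p = 0.000154) and 1.97-fold in mTEClo (log2 fold change of 0.97 with SE 0.15, adjusted p = 5.5e-05), and the difference between these effects had a 95% interval of -0.50 to 0.46. Hpgds was 2.94-fold lower in KO cTEC (log2 fold change of -1.55 with SE 0.16, adjusted p = 2.31e-07).

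Ptges, which makes prostaglandin E2 (Entrez 64292, chr2:30889471-30931020), was the steadiest member, with a 3.20-fold ratio between its highest and lowest group means. In mTEChi it was at 83.6, 57.97 and 62.6 CPM in WT and 140, 120 and 141 CPM in KO (log2 fold change of 0.99 with SE 0.15, adjusted p = 5.12e-05). In mTEClo it was at 45.6, 40.02 and 39.7 CPM and 81.3, 69.5 and 71.99 CPM (log2 fold change of 0.83 with SE 0.15, adjusted p = 0.000212). In cTEC it was at 79.8, 64.04 and 52.4 CPM and 55.5, 53.3 and 57.3 CPM, groups that overlapped (log2 fold change of -0.24 with SE 0.14, adjusted p = 0.174), although the difference passed the threshold without WT pool 3 (log2 fold change -0.38, adjusted p = 0.0331). Ptges was thus apart from Hpgds in cTEC. Of the summed RPKM of both synthases, Hpgds made up 36.4% ± 3.38 in WT cTEC and 18.6% ± 2.19 in KO cTEC (SD, n = 3), with no overlap, and the exact permutation test again gave its smallest value of 0.1. In mTEChi the shares were 42.3% ± 3.96 and 41.5% ± 5.08 (exact permutation p = 0.9), and in mTEClo 66.9% ± 3.26 and 69.5% ± 2.80 (exact permutation p = 0.4).

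Tbxas1, thromboxane A synthase, known from platelets and macrophages (Entrez 21391, chr6:38864159-39084590), was measured on few reads. WT mTEChi had 2.77, 3.33 and 4.07 CPM, from 10, 28 and 30 counts, and KO mTEChi had 0.478, 0.228 and 0.589 CPM, from 4, 3 and 4 counts. All WT libraries were above all KO libraries (log2 fold change of -3.03 with SE 0.83, adjusted p = 0.00796). The other 4 groups had at most 1.19 CPM, and neither mTEClo (log2 fold change of -1.05 with SE 0.83, adjusted p = 0.346) nor cTEC (log2 fold change of 0.24 with SE 0.80, adjusted p = 0.833) gave a difference detectable at these counts. Summed markers of platelets and macrophages were also lower in KO mTEChi. The summed level of 5 megakaryocyte and platelet genes was 40.5 to 44.6 CPM in WT mTEChi and 21.8 to 30.0 CPM in KO mTEChi, with none of the 5 passing the test. That of 10 macrophage genes was 1560 to 1620 CPM and 828 to 987 CPM, with 7 of 9 tested lower and 1 higher. Most of these macrophage sums was Lyz2, which averaged 1450 CPM in WT mTEChi and 818 in KO mTEChi. Whether the marker transcripts came from such cells or from TEC was not tested, nor was their part in the Tbxas1 result.

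Hpgd, the enzyme that starts prostaglandin breakdown (Entrez 15446, chr8:56294552-56321046), changed in opposite directions in the medullary subsets. In mTEChi it was at 86.9, 88.1 and 76.6 CPM in WT and 122, 123 and 105 CPM in KO. In mTEClo the levels were 489, 479 and 421 CPM and 155, 166 and 148 CPM, and in cTEC 392, 571 and 419 CPM and 374, 360 and 377 CPM. WT and KO were apart in each subset, by a wide margin in mTEClo and narrowly in cTEC, where WT pool 2 stood well above the others. Hpgd rose 1.4-fold in mTEChi (log2 fold change of 0.48 with SE 0.13, adjusted p = 0.00665) and was 2.96-fold lower in KO mTEClo (log2 fold change of -1.57 with SE 0.13, adjusted p = 1.5e-08). The cTEC difference was small (log2 fold change of -0.32 with SE 0.12, adjusted p = 0.0393). Without the cTEC library of pool 2 it was -0.13 (adjusted p = 0.343), and it also missed the threshold without pool 4 (0.0667), pool 5 (0.108) or pool 6 (0.0741) and when only the cTEC groups were fitted (0.0831). The gap between WT mTEChi and WT mTEClo, a log2 difference of -2.47, was -0.42 between the KO subsets, and the test of that change gave 2.05 (adjusted p = 3.82e-07). The gap between the KO subsets missed the threshold without 1 library, that of KO mTEChi of pool 6 (adjusted p = 0.0615).

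Between KO mTEChi and KO mTEClo, 3 members were higher in mTEChi and 6 lower, beside 23% and 22.4% of all genes. Ptgs2, Pla2g4a and Ptges were higher in KO mTEChi, as in WT. For Alox5 the log2 difference was -1.41 in KO and -2.96 in WT, and for Ptgs1 -1.47 and -2.34. These gaps were narrower in KO by the tests of the difference given above. For Ptgs2 the gap was 3.62 in KO and 3.72 in WT.

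Markers of tuft cells moved with several members. The list held 20 genes, none of them a member, among them the channel Trpm5 and the transcription factor Pou2f3. In KO mTEChi 15 of 20 rose and none fell (median log2 fold change 0.96), in KO mTEClo 15 rose and 1 fell (median 0.94), and in KO cTEC none rose and 19 fell (median -2.94). Summed, they reached 928 to 1280 CPM in WT mTEChi against 2050 to 2280 CPM in its KO counterpart. The mTEClo sums were 3290 to 4670 CPM (WT) against 6160 to 6470 CPM (KO), while those of cTEC were 1770 to 2840 CPM against 326 to 380 CPM. All 20 markers had reads in each group. Across the 18 libraries, which share their subset and genotype, Pearson's r of log2 CPM with that sum was 0.96 for both Ptgs1 and Alox5ap, 0.91 for Ltc4s, 0.90 for Hpgds and 0.87 for Alox5. It was 0.50 for Pla2g4a, 0.17 for Ptgs2, 0.11 for Ptges, -0.04 for Hpgd and -0.28 for Tbxas1. In KO cTEC, 6 of 10 thymic epithelial genes rose (Enpep, Epcam, Foxn1, Krt8, Prss16 and Psmb11) and 3 fell (Aire, Ccl21a and Krt5). How far the number of tuft cells, or the mix of cells in the cTEC sort, accounts for the KO differences was not tested.

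**Figure D4:**
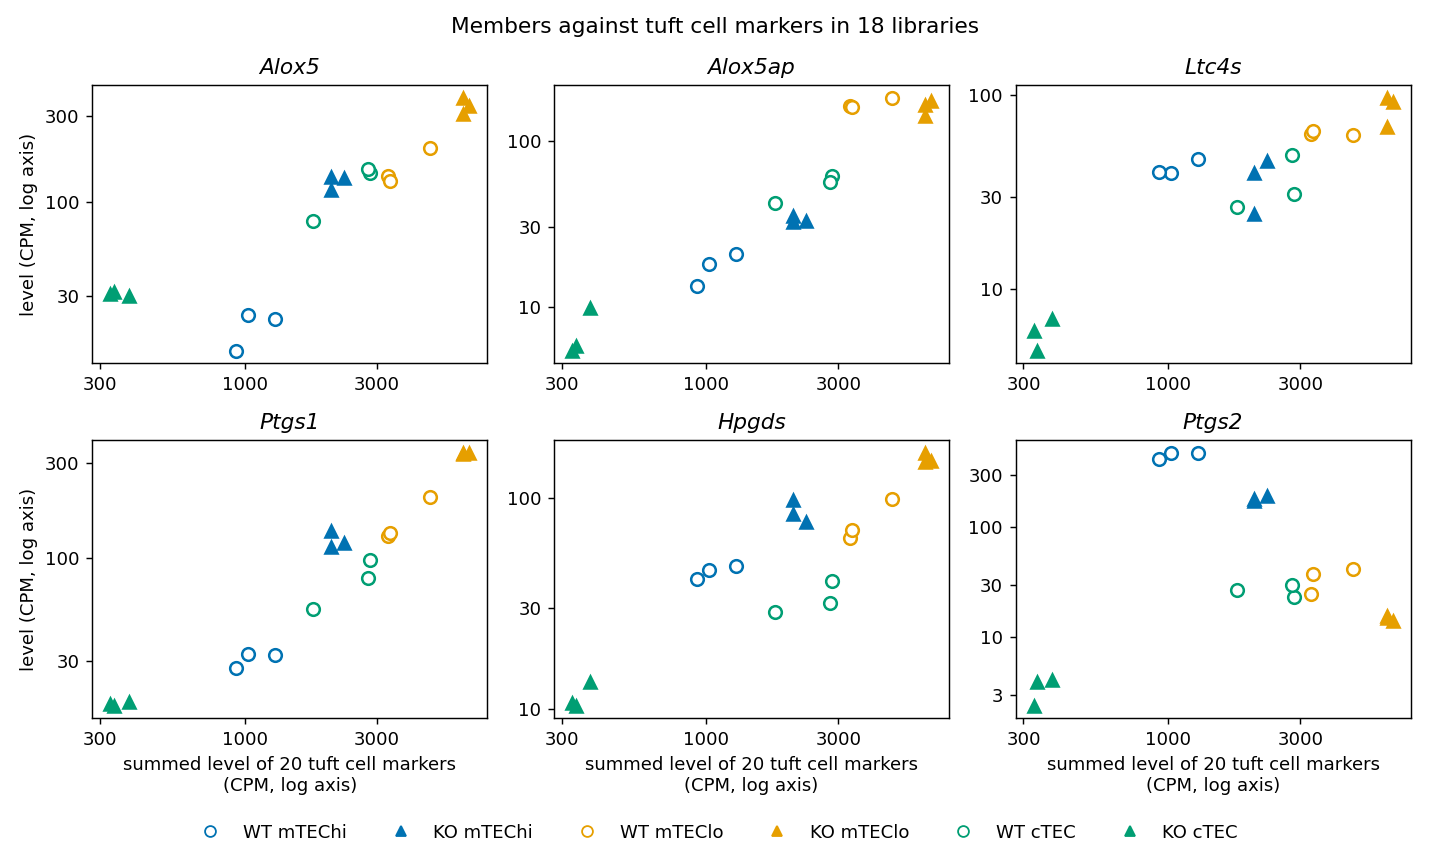
Level of 6 members in CPM against the summed level of 20 tuft cell markers in CPM, both on log axes, in 18 libraries, with open circles for WT and filled triangles for KO and 1 colour per subset. On the marker axis KO cTEC lies at the low end (326 to 380 CPM) and KO mTEClo at the high end (6160 to 6470 CPM). Ptgs2 has its highest group mean in WT mTEChi, Alox5ap in WT mTEClo and the other 4 in KO mTEClo.

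The level of Alox5, Ptgs1, Alox5ap, Ltc4s and Hpgds was also set against the summed tuft markers. Alox5 stood at 1.61% to 2.30% of the marker sum in WT mTEChi and at 5.67% to 6.67% in KO mTEChi, and Ptgs1 at 2.49% to 3.18% and 5.17% to 6.61%. Neither pair of groups overlapped, and for both genes the KO ratio was also above the WT ratio in mTEClo and in cTEC. Alox5ap had overlapping ratios in mTEChi, 1.43% to 1.78% in WT against 1.43% to 1.72% in KO. Its mTEClo ratio was 3.88% to 4.94% in WT and 2.28% to 2.68% in KO. Ratios of Alox5ap overlapped in cTEC (2.02% to 2.37% and 1.67% to 2.57%). Ltc4s went from 3.65% to 4.34% in WT mTEChi to 1.19% to 2.01% in KO mTEChi. It overlapped in mTEClo (1.33% to 1.95% against 1.11% to 1.58%) and in cTEC (1.09% to 1.75% against 1.44% to 1.87%). Hpgds overlapped in mTEChi (3.70% to 4.44% in WT against 3.37% to 4.76% in KO) and was higher in KO in mTEClo (1.96% to 2.11% against 2.31% to 2.65%) and in cTEC (1.13% to 1.63% against 3.08% to 3.51%). In mTEChi the marker sum held Spib (248 CPM in WT, 338 in KO) and Chil1 (183 and 137 CPM), neither of them called. Single markers there had log2 fold changes from -0.42 to 2.39, beside 2.68 for Alox5 and 1.99 for Ptgs1. The ratios depend on which markers are summed. They are given as descriptions and were not tested.

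Markers of other cells that use the pathway also differed between groups. The 10 mast cell genes summed to 945 to 1130 CPM in WT mTEChi against 518 to 750 CPM in KO mTEChi, with 6 lower and none higher. Hdc alone averaged 884 and 519 CPM, while Cpa3 and Ms4a2 averaged 1.37 and 1.74 CPM in WT mTEChi. The mast cell protease gene Cpa3 was at 0 in WT cTEC and KO mTEClo. The 8 neutrophil genes summed to 447 to 564 CPM in WT mTEChi against 134 to 159 CPM in KO mTEChi, with 5 of 7 tested lower. In cTEC, 5 eosinophil genes summed to 53.7 to 120 CPM in WT and 6.52 to 10.9 in KO, with 4 lower, and 10 macrophage genes to 153 to 220 and 38.4 to 49.2 CPM, with 5 of 9 tested lower. Of 10 thymocyte genes, 8 rose instead in KO cTEC, from a sum of 49.2 to 128 CPM to one of 240 to 395 CPM. The mast cell sum in cTEC was 70.1 to 112 CPM in WT and 18.3 to 28.5 CPM in KO, with 4 genes lower and 1, Cpa3, higher. In mTEClo the mast cell sum was higher in KO (120 to 147 against 73.6 to 103 CPM), with 2 genes lower (Gata2 and Tpsb2) and 1, Kit, higher. The macrophage sums there overlapped (114 to 143 CPM in KO against 137 to 156 in WT), with C1qa lower and Itgam higher among 9 tested. Of the thymocyte genes in mTEChi, Ptprc was higher in KO (13.9 against 8.46 CPM, adjusted p = 0.0146 in the edgeR test), and Cd3d and Cd3g were lower. Whether the marker transcripts came from such cells or from TEC was not tested, nor was their part in the members' results.

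The genes most like each member were taken by Pearson's r of log2 CPM over the 18 libraries among 12396 genes with a mean of at least 5 CPM. These libraries form 6 groups of 3, so r largely follows differences between groups. Each partner was picked as the highest among all genes compared, and no p-value is given. Ptgs1 was closest to Hepacam2 (r = 0.99), Ptpn18 and the tuft cell marker Sh2d7. Alox5ap was closest to Car7 (0.99), Gnat3 and Sh2d6, and the list of tuft cell markers holds Gnat3 and Sh2d6. Ptgs2 was closest to Atp8b4 (0.99), Tnfsf9 and Lyz2, a macrophage marker on the list. Pla2g4a was closest to Arhgap18 (0.99), Hpgd to Vwa1 (0.97), Alox5 to Plekhg5 (0.98), Ltc4s to B4galt6 (0.98) and Hpgds to Snx7 (0.99). Ptges reached 0.93 with Atp6v0a2, and Tbxas1 0.84 with Acaca. Among the members themselves the highest values were 0.94 for Alox5 and Ptgs1, 0.92 for Alox5ap and Ptgs1 and 0.91 for Ptgs1 and Hpgds.

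Other genes of the pathway were followed in 7 lists by role, 57 genes of which 53 were tested. In KO mTEChi 9 rose and 11 fell (median log2 fold change -0.19), in KO mTEClo 11 rose and 9 fell (0.12), and in KO cTEC 9 rose and 22 fell (-0.61). As shares of the 53, the medullary counts lie near the percentages of all genes given above, and in cTEC the falls were more frequent than over all genes, which was not tested. Of 16 other phospholipases A2, 3 rose and 7 fell in mTEChi, 3 rose and 2 fell in mTEClo, and 3 rose and 8 fell in cTEC. The secreted enzyme Pla2g5 fell in all 3 subsets, in mTEClo from 9.39 to 0.682 CPM (log2 fold change of -3.82 with SE 0.46, adjusted p = 2.73e-06). Pla2g12a fell in mTEChi (-0.70, adjusted p = 0.000201) and rose in mTEClo (0.77, adjusted p = 6.36e-05) and cTEC (0.49, adjusted p = 0.00178).

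Among 6 other lipoxygenases, 2 rose and none fell in mTEChi, 3 rose and 1 fell in mTEClo, and none rose and 3 fell in cTEC. Alox12e, an epidermal 12-lipoxygenase, was the most abundant of them, at 2290 in KO against 1190 CPM in WT in mTEChi (log2 fold change of 0.94 with SE 0.13, adjusted p = 1.48e-05). Alox15, the 12/15-lipoxygenase, was at 159 in KO against 311 CPM in WT in mTEClo (log2 fold change of -0.96 with SE 0.15, adjusted p = 5.21e-05) and 44.1 in KO against 192 CPM in WT in cTEC (log2 fold change of -2.12 with SE 0.16, adjusted p = 1.76e-09). In mTEChi it had a log2 fold change of 0.08 (adjusted p = 0.698). Alox15 therefore fell where Alox5 rose in mTEClo, and both fell in cTEC.

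Of 9 tested genes that process or export leukotrienes, 2 rose and 1 fell in mTEChi, 1 rose and 2 fell in mTEClo, and 2 rose and 5 fell in cTEC. Ggt5, which converts leukotriene C4 to D4, rose in mTEChi (97.7 in KO against 73.9 CPM in WT, log2 fold change of 0.40 with SE 0.11, adjusted p = 0.0065) and fell in the other subsets. It was at 51.1 in KO against 167 CPM in WT in cTEC (log2 fold change of -1.71 with SE 0.11, adjusted p = 1.56e-10) and at 97.3 in KO against 188 CPM in WT in mTEClo (log2 fold change of -0.95 with SE 0.10, adjusted p = 7.47e-07). The exporter gene Abcc1 fell in mTEClo and cTEC (-0.38 and -0.85). Lta4h, which makes leukotriene B4 from the same leukotriene A4, rose in cTEC from 66.7 to 97.6 CPM (log2 fold change of 0.55 with SE 0.11, adjusted p = 0.000565). The members upstream of Lta4h fell in these cTEC libraries, as given above.

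The other prostanoid synthases (7 genes) had 1 fall in mTEChi, 1 fall in mTEClo, and 2 rises and 1 fall in cTEC. Ptgds, the second prostaglandin D2 synthase gene, was at 91.4 in KO against 190 CPM in WT in mTEChi (log2 fold change of -1.06 with SE 0.22, adjusted p = 0.00115), opposite to Hpgds in these libraries. Ptges2 rose in cTEC from 31.5 to 63.7 CPM (log2 fold change of 1.02 with SE 0.18, adjusted p = 0.000109). Of 4 genes for prostaglandin uptake and breakdown, 2 rose in mTEChi, 3 in mTEClo and 1 in cTEC, and none fell. The uptake carrier Slco2a1 rose in mTEChi (log2 fold change of 0.91 with SE 0.16, adjusted p = 0.000256), and the reductase gene Ptgr2 rose in mTEClo (log2 fold change of 0.89 with SE 0.13, adjusted p = 1.68e-05), where Hpgd fell.

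Receptors for the products were measured as well. Of 7 tested prostanoid receptor genes, 1 fell in mTEChi, 3 fell in mTEClo, and 1 rose and 5 fell in cTEC. Ptger4, a prostaglandin E2 receptor gene, was at 6.38 in KO against 39.00 CPM in WT in cTEC (log2 fold change of -2.61 with SE 0.18, adjusted p = 8.89e-10) and fell in mTEClo (-0.77, adjusted p = 0.00158). Ptgdr, the gene of a prostaglandin D2 receptor, was at 14.1 in KO against 37.2 CPM in WT in cTEC (log2 fold change of -1.4 with SE 0.19, adjusted p = 4.06e-06). Of 4 tested leukotriene receptor genes, Oxgr1 fell in mTEChi at low levels (0.127 against 1.96 CPM) and Cysltr2 rose in mTEClo (33.1 against 22.4 CPM, log2 fold change of 0.56 with SE 0.13, adjusted p = 0.00301). None of the 4 passed the test in cTEC.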

How the data were processed

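RNA from sorted TEC became cDNA by the SMART-Seq v4 kit and libraries by Nextera XT, then sequenced as paired ends on a NextSeq 500, per the labels' protocols. The deposited values were raw read counts per gene, made by the authors with featureCounts on mm10, per the submitters' processing notes, and each file also gave a gene length as another deposited column. Not given in the sources used here were the aligner, tool versions and handling of reads with several matches. Counts in the 18 single files equalled those of the series table.

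The test was run with edgeR 4.0.16 on R 4.3.3. After filterByExpr (minimum count 10), libraries were scaled by TMM, and group means were fitted to all 18 libraries (12 residual degrees of freedom) with glmQLFit and glmQLFTest, Benjamini-Hochberg adjustment and a threshold of 0.05. CPM use the scaled library sizes, and RPKM also divide by the deposited gene length. Library totals ran from 3554089 to 20054360 counts, and Tbxas1 had 0 to 30 counts per library. Alternatives were another scaling (RLE), no filter, DESeq2 1.42.0, only the groups compared, the mouse pool as a block, and leaving out each library. Pool numbers pair the subsets because the labels give 1 pool of mice for each number. Deviations of libraries from their group means had a median r of 0.06 within a pool (18 pairs) and -0.03 between pools (36 pairs). KO and WT were different mice and share no number.

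The members, lists and tests were chosen with earlier results of these data known. Named genes are the members, up to 3 other pathway genes per role and KO comparison with the smallest adjusted p, of which the text gives a selection, and the 3 genes most like each member. Promoter sequences are RefSeq's on GRCm38.p6, gene positions come from the RefSeq gene table of that assembly, and overlaps of exons from GENCODE.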

Additional observations from a re-analysis of the deposited data

Results flagged for a closer look

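These results stood out because the KO effect on a member differed between 2 subsets, by the test of that difference in the edgeR fit. All values are differences of log2 fold changes with adjusted p under 0.05, and the comparisons share libraries. Between mTEChi and cTEC the KO effect was higher in mTEChi by 4.69 for Alox5, 4.08 for Ptgs1, 3.90 for Alox5ap, 2.51 for Hpgds, 2.37 for Ltc4s, 1.95 for Pla2g4a, 1.62 for Ptgs2, 1.23 for Ptges and 0.80 for Hpgd. For Ptgs2 this means a smaller fall in mTEChi, since it fell in both subsets. Tbxas1, measured on few reads, had a difference of -3.27.

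Between mTEClo and cTEC the effect was higher in mTEClo by 3.21 for Ptgs1, 3.14 for Alox5, 3.02 for Pla2g4a, 3.01 for Ltc4s, 2.86 for Alox5ap, 2.53 for Hpgds, 1.72 for Ptgs2 and 1.07 for Ptges. Hpgd had a difference of -1.25, having fallen more in mTEClo. Between the medullary subsets, Hpgd had the largest difference, 2.05 higher in mTEChi, followed by Alox5 at 1.55, Alox5ap at 1.04 and Ptgs1 at 0.87. Pla2g4a had a difference of -1.07, its rise being larger in mTEClo.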

How the results depend on the processing

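For KO against WT, 116 of 118 values of single members under another scaling, filter, tool or set of groups kept their direction and side of the threshold, as did 169 of 180 with 1 library left out. Values that lost or gained a call are given beside their results. With only the groups compared in the fit, 3051 genes in place of 5313 differed between WT mTEClo and WT cTEC, and the KO effect differed between mTEChi and mTEClo in 4117 genes in place of 2613. With the mouse pool as a replicate block, the members with a lower KO effect in mTEChi than in cTEC went from 1 to 0 (Tbxas1, -3.31, adjusted p = 0.064), and the block changed no other call of a member. Leaving out 1 library gave 0 to 1 such members. Directions turned only for differences that were not called. Without 1 library these ranged from -0.37 to 0.032 for Ltc4s (KO against WT in mTEChi), -0.13 to 0.016 for Alox5ap (mTEClo), -0.37 to 0.99 for Tbxas1 (cTEC), -0.11 to 0.20 for Ptges (WT mTEChi against cTEC), -0.10 to 0.19 for Hpgd (WT mTEClo against cTEC) and -0.38 to 1.4 for Tbxas1 (KO mTEChi against mTEClo). The difference of KO effects between mTEChi and mTEClo ranged from -0.23 to 0.09 for Hpgds and -0.25 to 0.09 for Ptgs2. With no filter the values were -0.08 for Ptges (WT mTEChi against cTEC), -0.037 for Hpgd (WT mTEClo against cTEC) and 0.029 for Hpgds (difference of KO effects between mTEChi and mTEClo). With only the groups compared they were -0.0032 for that Hpgd value, 0.10 for that Hpgds value and 0.029 for Ptgs2 in the same comparison. RLE scaling and DESeq2 also gave -0.0032 for Hpgd. Causes were not tested. RLE scaling moved the median log2 difference over all genes between WT mTEChi and WT mTEClo from 0.08 to 0.17 and kept the sign of every called member there. Tbxas1, on 0 to 30 counts per library, is limited by its few counts.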

Other observations

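Other genes of the pathway also differed between WT mTEChi and WT mTEClo. Of 53 tested genes outside the members, 30 were higher in mTEChi and 11 lower, or 56.6% and 20.8%, beside 32.6% and 26.7% of all genes tested, with a median log2 difference of 0.99 against 0.08. Roles differed. Of 16 other phospholipases A2, 10 were higher and 3 lower, of 6 other lipoxygenases 4 and none, of 9 leukotriene enzymes and exporters 6 and 1, and of 7 prostanoid receptors 4 and 1. As many were higher as lower, 2 each, among other prostanoid synthases, genes of prostaglandin uptake and breakdown, and leukotriene receptors. Markers of macrophages (9 of 9 tested higher), mast cells (9 of 10) and neutrophils (6 of 7) were higher in mTEChi too, with the sums given above, and their part in these counts was not tested. The genes named next were chosen after their values were seen. The pancreatic enzyme gene Pla2g1b averaged 28 CPM in mTEChi and 0.468 in mTEClo (log2 difference 5.91, SE 0.66, adjusted p = 2.54e-07). Ptgds, a prostaglandin D2 synthase gene, averaged 190 and 7.33 CPM (4.70, SE 0.27, adjusted p = 3.49e-11). The prostaglandin E2 receptor gene Ptger3 averaged 80.9 and 17.1 CPM (2.24, SE 0.20, adjusted p = 1.32e-08). The epidermal lipoxygenase genes Alox12b and Alox8 were also higher, by 2.79 and 2.22 on the log2 scale (adjusted p = 9.15e-07 and 2.01e-05). Mature mTEC are known to express antigens of other organs, and no test of that origin was made for these genes.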
